A study of Papio hamadryas with 12 samples.

Results

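The most abundant nuclear genes of the blood libraries were described in 6 baboons (Papio hamadryas). The 2 most abundant genes of the series, called the 2 leading genes, were set aside. The members were selected on their measured level. Counts were summed by gene and given per 1000000 counts of the library total without the 2 leading genes (CPM). Mitochondrial genes were left out, as were genes whose CPM had a Spearman correlation of 0.6 or more with the share of the 2 leading genes over the 12 libraries. The 150 genes with the highest median CPM of those that remained are the members, out of 27533 genes in the table. All 150 were among the 11579 genes that were tested. Tested genes had a mean of at least 1 count per 1000000 of the whole library total, with the 2 leading genes included. Since the level chose the members, their levels are given without a test. The diet labels were not used in the choice, and the diet contrast was tested. The choice was not fully separate from diet, since the share of the 2 leading genes was lower on the HCHF diet in every animal except baboon 1.

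Buffy coat, the white cell layer of centrifuged blood, was taken from each animal before and after 7 weeks of a high-cholesterol, high-fat (HCHF) diet. The groups were high LDL-C animals after the HCHF diet, high LDL-C animals on chow, low LDL-C animals after the HCHF diet and low LDL-C animals on chow, with 3 libraries in each. Fat supplied 40% of the calories of the HCHF diet and 4% of those of chow, and cholesterol stood at 1.7 mg/kcal in the HCHF diet and 0.03 mg/kcal in chow. The high and low LDL-C animals (baboons 4 to 6 and baboons 1 to 3) were half-siblings from a pedigreed colony, chosen for contrasting LDL cholesterol, and every animal was sedated before blood was drawn. Each baboon gave 1 library per diet, so a diet difference also holds whatever else changed in that animal over the 7 weeks. The 6 index barcodes were split by diet, 3 on HCHF libraries and 3 on chow libraries, so index and diet cannot be told apart.

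Blood RNA is known to be dominated by the globin messages of young red cells. Among white cells, the most abundant nuclear messages usually encode ribosomal proteins, translation factors, actin and its partners, and the class I major histocompatibility proteins. Genes of this kind are commonly short, with short introns, and many of them have intronless copies elsewhere in the genome that share sequence with the parent gene. The files pair no Ensembl ID with a gene name, so none of these roles was given to a member. For the same reason the name globin could not be checked for the 2 leading genes, ENSPANG00000001157 (PapAnu2 chr20:39182-41379) and ENSPANG00000004952 (chr14:60046720-60049466), and markers of blood cell types could not be looked up. The member at rank 4 lay on chromosome 14 at 60019646 to 60020727, with 25992 bases between it and the second leading gene, so the set is called here by its rule and not as genes outside the globins.

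The libraries held 3434663 to 8518159 counts. The 2 leading genes took 16.3% of the counts of baboon 6 on the HCHF diet, 16.8% of baboon 1 on chow, 89.3% of baboon 2 on chow, and 43.5% to 63.9% in the other 9. These 3 libraries stood apart from the rest, and values without their animals are given where they change a result. Outside the 2 leading genes, 915109 to 3872812 counts were left, of which mitochondrial genes took 15.9% to 42.2%. The lowest count of any member in any library was 98, in the chow library of baboon 2, so counting error was small beside the differences between libraries.

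The members took a median of 18.9% of the counts outside the 2 leading genes over the 12 libraries. In high LDL-C animals the share was 18.9%, 19.5% and 14.9% on the HCHF diet in baboons 4, 5 and 6, against 20.7%, 18.9% and 15.6% on chow. In low LDL-C animals it was 20.5%, 12.3% and 21.7% on the HCHF diet in baboons 1, 2 and 3, against 14.2%, 12% and 19% on chow. On this total the share was thus higher on the HCHF diet in all 3 low LDL-C animals and in 1 of the 3 high LDL-C animals. The size in the low LDL-C animals ran from 0.3 to 6.3 percentage points, and the ranges of the diets overlapped in both phenotypes. Mitochondrial genes also took a larger part of the same total on the HCHF diet in every animal, by 2.9 to 26.3 points, and their part in the members' share was not tested. With the mitochondrial counts taken out of the total, the members' share was 27.3%, 27.5% and 24.1% on the HCHF diet in baboons 4 to 6, against 28.0%, 25.6% and 23.6% on chow. In baboons 1 to 3 it was 34.6%, 21.3% and 32.2% on the HCHF diet, against 22.0%, 14.2% and 23.5% on chow, and the low LDL-C ranges still overlapped. Both totals still held the abundant nuclear genes that the correlation left out. In baboon 2 those genes took 10.4% of the counts outside the 2 leading genes on the HCHF diet and 41.4% on chow. A share without them was not computed, so the direction in baboon 2 holds for these totals only. Of whole libraries the members took 1.29% to 12.4%, lowest in the chow library of baboon 2 and highest in the HCHF library of baboon 6.

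**Figure D1:**
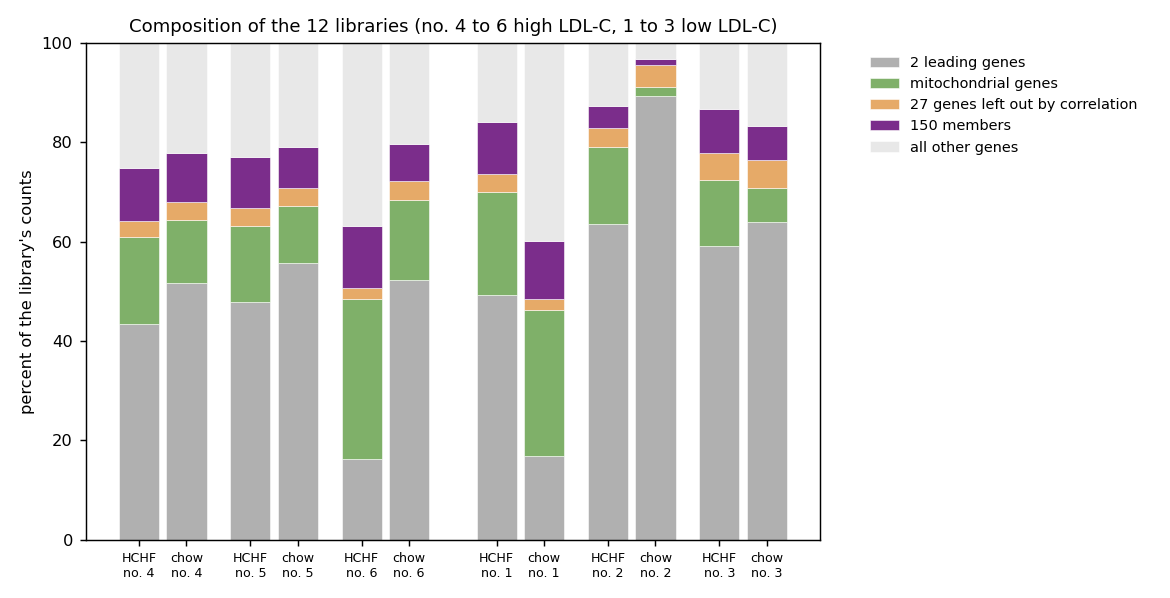
Stacked bars give the percent of each library's counts (y axis) taken by the 2 leading genes, mitochondrial genes, the 27 genes left out by the correlation, the 150 members and all other genes, for each baboon on HCHF and on chow (x axis). The members took 1.29% of the chow library of baboon 2, where the 2 leading genes took 89.3%, and 12.4% of the HCHF library of baboon 6, where they took 16.3%.

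The exclusions mattered for what counts as abundant. A further 27 nuclear genes had a median CPM above that of the last member and were left out by the correlation. These took 2.52% to 41.4% of the counts outside the 2 leading genes, with the highest value in the chow library of baboon 2. Another 15 mitochondrial genes stood above the same level. The last 3 members had medians of 422, 422 and 421 CPM and the first 3 genes outside had 419, 419 and 418 CPM, so the boundary at 150 fell in a continuous run of values.

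Within the set the counts were concentrated at the top. In each library, its own 10 highest members took 22.3% to 30.2% of the members' counts. Its own 50 highest members took 57.4% to 68.1%. Medians over the 12 libraries ran from 421 to 10257 CPM, with 8 members at 2000 CPM or more, 66 at 1000 or more and 84 below 1000. CPM is not scaled for transcript length, which the file does not hold, so the order of the members is an order of reads and not of molecules.

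The member at rank 1 (X chromosome, 140128389 to 140130259) had a median of 10257 CPM, and that at rank 2 (chromosome 7, 19238258 to 19245156) 10135 CPM. Their ranges, 7026 to 20233 and 6680 to 15279 CPM, overlapped over most of their length, so their order is not beyond their spread. Both were highest in the HCHF library of baboon 3. Rank 3 (chromosome 4, 29387902 to 29390838) followed at 5409 CPM, with 2430 to 9417 CPM over the libraries. The next 12, ranks 4 to 15, had medians of 1741 to 2709 CPM and overlapping ranges. None of the top 15 spanned 10 kb or more on the genome. A library's own top 150 under the same exclusions shared 114 to 138 genes with the members, least in the HCHF library of baboon 3 and most in the chow library of baboon 5.

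The rank 4 member was the most variable of all. It had 2269, 6556 and 231 CPM on the HCHF diet in baboons 4, 5 and 6, against 3150, 13702 and 3264 CPM on chow. In low LDL-C animals it had 7679, 929 and 1170 CPM on the HCHF diet in baboons 1, 2 and 3, against 1451, 4114 and 1823 CPM on chow. It was lower on the HCHF diet in 5 of 6 animals and higher in baboon 1, with a log2 fold change over all 6 of -0.87 (SE 0.80) and an unadjusted p of 0.303 by edgeR. Its highest and lowest CPM differed 59.4-fold. It is annotated with 2 transcripts and is the only member near a leading gene, and its Spearman correlation with the share of the 2 leading genes was 0.13.

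The members were compact genes by their annotated span from start to end. Their median span was 4564 bp, against 13134 bp in the next 150 genes by rank and 22939 bp over all genes tested. A span under 1 kb was held by 42 members (28.0%), against 14 of the next 150 (9.33%) and 5.5% of genes tested. A span of 1 to 10 kb was held by 55 members (36.7%), against 22.7% of genes tested, and 10 kb or more by 53 (35.3%), against 71.8%. The largest span was 182430 bp and the smallest 133 bp. Which of the short members are full genes and which are copies of another gene is not annotated in the file. Reads that match several near-identical copies are divided between them by the counting step, so the level of a member with such copies is uncertain.

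The members came from 21 chromosomes. Chromosome 19 held 15 of them (10%, against 7.27% of genes tested), and the X chromosome held 14 (9.33%, against 3.43%). A stretch of chromosome 4 from 29 to 33 Mb, picked after its members had been seen, held 6 (4.0%, against 0.976%). In macaques the major histocompatibility complex lies on chromosome 4, but the file does not say whether this stretch is its baboon counterpart. Of all 150 members, 49 had their lowest CPM in the chow library of baboon 2, among them all 6 of the stretch. Of the 55 members of 1 to 10 kb, the class of these 6, 22 were lowest there. Rank 3 is the leading member of the stretch. It had 9417, 6799 and 4382 CPM on the HCHF diet in baboons 4, 5 and 6, against 7754, 6335 and 5541 CPM on chow. In baboons 1, 2 and 3 it had 5181, 4077 and 5277 CPM on the HCHF diet, against 4392, 2430 and 5704 CPM on chow. The diets overlapped in both phenotypes, and 4 of 6 animals were higher on the HCHF diet.

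The members varied less over the 12 libraries than genes at lower levels. The median SD of log2 CPM was 0.48 in the members, 0.57 in the next 150 genes by rank and 0.69 over all genes tested. Between the 2 libraries of a baboon it was 0.37 in the members and 0.62 over all genes tested, and between baboons it was 0.42 and 0.53. Low counts widen the spread of weak genes. The next 150 genes passed the same exclusions as the members, while all genes tested included mitochondrial genes and genes left out by the correlation. These figures are therefore a description. In 80 members the highest library was less than 3 times the lowest, and in 32 it was more than 5 times. An SD above 1 was found in 5 members, at ranks 4, 116, 103, 29 and 101, with values of 1.57, 1.15, 1.14, 1.14 and 1.1. The 5 steadiest members, at ranks 89, 120, 69, 133 and 20, had SDs of 0.34 to 0.38. Rank 89 (chromosome 14, 11724409 to 11727088) stayed between 506 and 976 CPM in every library.

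**Figure D2:**
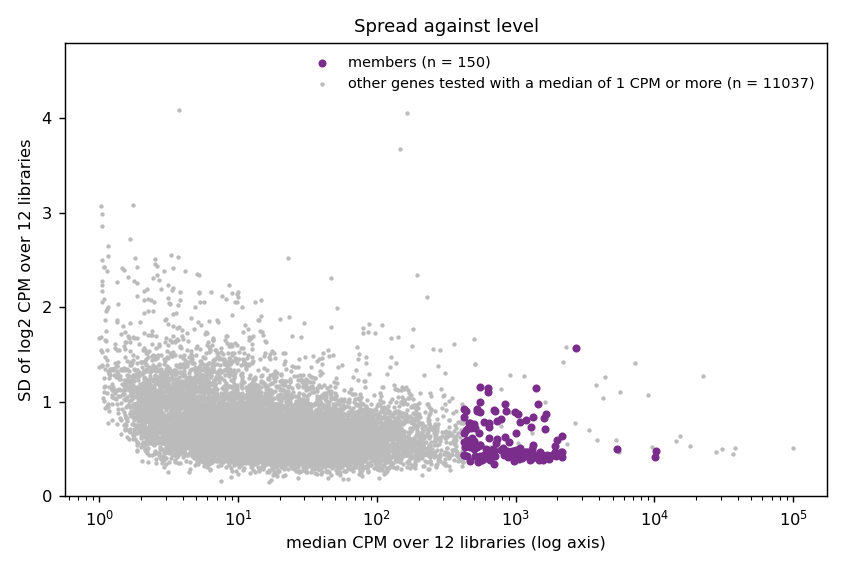
Each point is a gene, with its median CPM over 12 libraries on a log x axis and the SD of its log2 CPM on the y axis, for the 150 members and the 11037 other genes tested with a median of 1 CPM or more. The members sit at 421 CPM and above with a median SD of 0.48, and the point highest among them is the rank 4 member at 1.57. The grey points at 421 CPM and above are mitochondrial genes and genes left out by the correlation.

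Spread went with span. The median SD was 0.45 in members under 1 kb, 0.47 in those of 1 to 10 kb and 0.72 in those of 10 kb or more, whose levels were also lower (median 637 CPM, against 950 CPM under 1 kb). An SD above 0.7 was found in 1 of 42, 9 of 55 and 28 of 53 members of these classes. Members of different span also varied in different libraries. Of the 42 members under 1 kb, 34 were highest in the HCHF libraries of baboons 3 and 1 (20 and 14). Of the 53 members of 10 kb or more, 22 were lowest in the HCHF library of baboon 3 and 15 in the chow library of baboon 2, and 19 were highest in the HCHF library of baboon 5. As a description over the 12 libraries, which are 6 pairs and share 1 total per library, the median Pearson correlation between log2 CPM values of 2 members was 0.80 where both spanned under 1 kb. It was 0.34 where both spanned 10 kb or more, and -0.09 between a member under 1 kb and one of 10 kb or more.

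**Figure D3:**
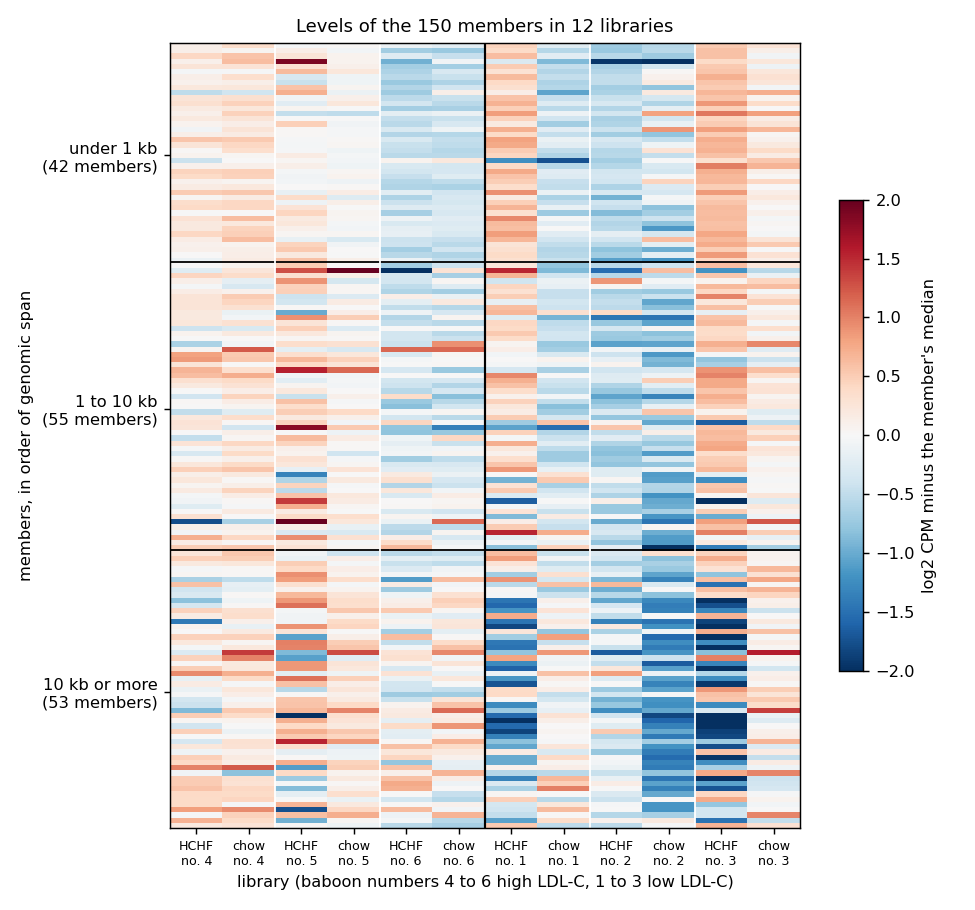
Rows are the 150 members in order of genomic span and columns the 12 libraries, each baboon on HCHF and then on chow; color is log2 CPM minus the member's median, from -2 to 2. Members under 1 kb were mostly above their median in the HCHF libraries of baboons 1 and 3, where many members of 10 kb or more were below theirs.

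The first question was whether the members changed in response to the HCHF diet in each phenotype. No member passed the test in either. The test was edgeR's quasi-likelihood test with a term for each baboon, and a call needed an unadjusted p below 0.05 together with an adjusted p below 0.20 (Benjamini-Hochberg, over all 11579 genes). In high LDL-C baboons 0 of 150 members were called, beside 0.112% of all genes. At an unadjusted p under 0.05 there were 2 members (1.33%), 1 higher and 1 lower, beside 4.34% of all genes. In low LDL-C baboons 0 members were called, beside 0.0% of all genes, and 3 (2.00%) had an unadjusted p under 0.05, all lower, beside 6.05% of all genes. Over all 6 baboons 0 were called, beside 0.0% of all genes, and 4 (2.67%) had an unadjusted p under 0.05, 1 higher and 3 lower, beside 5.32%. With DESeq2, 1 member was called in high LDL-C baboons, beside 0.0259% of all genes, and 1 in low LDL-C baboons, beside 0.0864%, and both calls were of the same member, ENSPANG00000012131. By edgeR with TMM, the members' share at an unadjusted p under 0.05 was below that of all genes in each of these comparisons, but this depended on the scale. On the total without the 2 leading and mitochondrial genes, the low LDL-C comparison had 34 members (22.7%) past the same unadjusted threshold, of which 33 were higher and 1 was lower, beside 2.98% of all genes. On that total there were 2 members (1.33%) in high LDL-C baboons, beside 1.97%, and 4 (2.67%) over all 6, beside 2.22%. No member was called on it. In baboon 2 the median log2 ratio of HCHF to chow on that total was 0.69 over the members and 1.22 over all genes tested. Less the all-gene median, the members stood at -0.53 in baboon 2, against 1.37 and 0.81 in baboons 1 and 3.

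The direction of the estimates was uneven. The members had been filtered by their correlation with the share of the 2 leading genes, while all genes tested had not. The part of this filter in the direction was not tested. The log2 fold change (HCHF over chow) was above 0 for 112 of 150 members in high LDL-C baboons (74.7%), with a median of 0.11, against 51.3% and 0.01 over all genes. It was above 0 for 116 members in low LDL-C baboons (77.3%), with a median of 0.46, against 46.9% and -0.04 over all genes. Over all 6 baboons it was above 0 for 117 members (78.0%), with a median of 0.27, against 48.2% and -0.01. The size of the medians, and in high LDL-C baboons the sign, rested on single animals. The high LDL-C median was -0.05 without baboon 5, with 38.0% of members above 0 against 50.9% of all genes, and 0.25 without baboon 6 and 0.17 without baboon 4. The low LDL-C median was 0.08 without baboon 1, 1.12 without baboon 2 and 0.22 without baboon 3. The median over all 6 was 0.08 without baboon 1, 0.49 without baboon 2 and 0.15 without baboon 3. Without baboon 1, 59.3% of members were above 0 in low LDL-C baboons, against 50.1% of all genes. Over all 6, with any 1 baboon left out, 72.0% to 80.0% of members were above 0, against 46.8% to 50.9% of all genes. The medians were also smaller after quantile normalization. There the high LDL-C median was 0.02, with 52.7% of members above 0 against 48.1% of all genes, the low LDL-C median 0.22 and the median over all 6 0.14.

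The animals differed in this. The median log2 ratio of HCHF to chow over the members, less the median over all genes tested in the same animal, depends little on the library total. In baboon 3, for instance, this measure was 0.81 on CPM and 0.88 on TMM-scaled counts. On CPM it was 0.00, 0.45 and -0.11 in the high LDL-C baboons 4, 5 and 6, and 1.36, -0.54 and 0.81 in the low LDL-C baboons 1, 2 and 3. The members were therefore above the other genes on the HCHF diet in baboons 1, 3 and 5, below them in baboon 2, and near them in baboons 4 and 6. In baboon 2 the sign of the plain ratio turned with the scale, with a median of 0.15 on CPM and -0.52 on TMM-scaled counts. The next 150 genes by rank had 0.03, 0.38 and -0.16 in baboons 4 to 6. In the low LDL-C baboons 1 to 3 they had 0.24, -0.05 and 0.07, each closer to the all-gene median than the members.

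Span separated the members in these same animals. Members under 1 kb stood at 0.01, 0.41 and -0.11 in baboons 4, 5 and 6 on this measure, and at 1.53, -0.97 and 1.02 in baboons 1, 2 and 3. Members of 10 kb or more stood at 0.02, 0.45 and -0.23 in baboons 4, 5 and 6, and at -0.42, 0.13 and -0.74 in baboons 1, 2 and 3. All 42 members under 1 kb were above the all-gene median in baboons 1 and 3, and none of the 42 was in baboon 2. Other tested genes under 1 kb, 595 of them, moved the same way by less, with 0.74, -0.37 and 0.60 in baboons 1, 2 and 3. The split by span was therefore not particular to the members.

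The same contrast can be read within the members alone. The summed CPM of the 42 members under 1 kb over that of the 53 members of 10 kb or more was 1.14, 1.02 and 0.80 on the HCHF diet in baboons 4, 5 and 6, against 1.09, 0.90 and 0.75 on chow. In baboons 1, 2 and 3 it was 1.97, 0.96 and 2.13 on the HCHF diet, against 0.77, 1.71 and 1.04 on chow. The ratio was higher on the HCHF diet in 5 of 6 animals and lower in baboon 2. The change was within 1.14-fold in the high LDL-C animals and 2.56-fold, 0.56-fold and 2.05-fold in the low LDL-C animals. The share of the 2 leading genes changed in the same direction as the ratio in baboon 1 (49.2% on the HCHF diet against 16.8% on chow) and in baboon 2 (63.6% against 89.3%). It changed in the opposite direction in the other 4 animals, baboon 4 (43.5% against 51.7%), baboon 5 (47.9% against 55.6%), baboon 6 (16.3% against 52.2%) and baboon 3 (59.1% against 63.9%). Its part in the result was not tested. RNA integrity per library is not in the files, and in bulk RNA fewer cells of a type and less RNA per cell cannot be told apart.

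**Figure D4:**
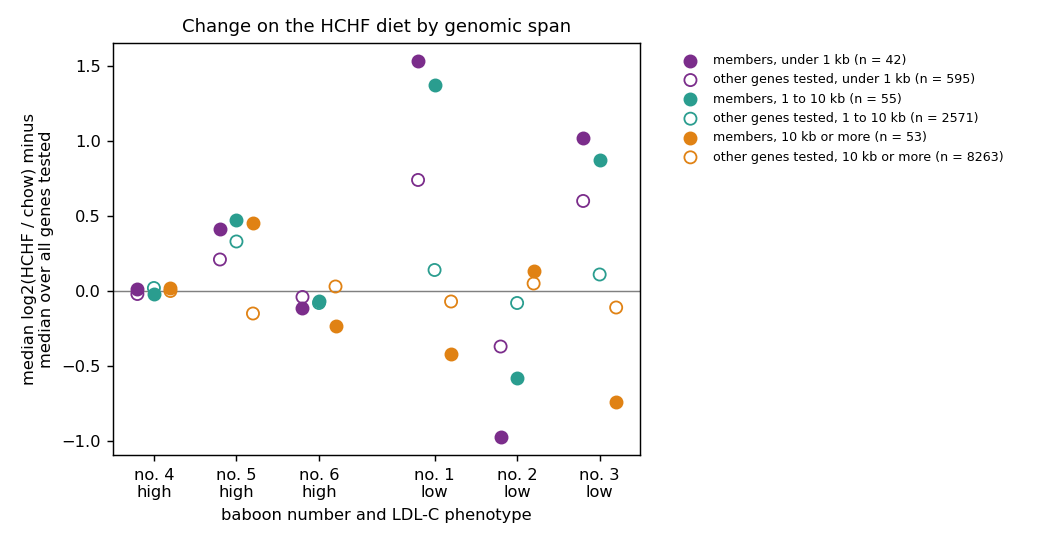
The y axis is the median log2 ratio of HCHF to chow minus the median over all genes tested, for each baboon (x axis), with filled points for members and open points for other tested genes of the same span class. Members under 1 kb stand at 1.53 and 1.02 in baboons 1 and 3 and at -0.97 in baboon 2, while all 3 classes of members lie between -0.23 and 0.47 in baboons 4, 5 and 6.

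Leaving out baboon 2, whose chow library had the fewest counts outside the 2 leading genes, changed the result in low LDL-C baboons. Without it 95 members were called, 80 higher (53.3%, beside 3.58% of all genes called higher) and 15 lower (10%, beside 5.22% of all genes called lower). By span, 39 of 42 members under 1 kb and 30 of 55 of 1 to 10 kb were called higher and none lower. Of the 53 of 10 kb or more, 11 were called higher and 15 lower. That fit compares 2 low LDL-C animals and takes the spread from all 5 that remain. Leaving out any other single baboon gave 0 called members in low LDL-C baboons.

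The member with the lowest p for diet was ENSPANG00000012131 (rank 29, chr14:11201334-11218334, PapAnu2). It had 1134, 746 and 1666 CPM on the HCHF diet in baboons 4, 5 and 6, against 3616, 3388 and 2681 CPM on chow. In the high LDL-C animals the diets did not overlap. It had 795, 432 and 771 CPM on the HCHF diet in baboons 1, 2 and 3, against 2516, 606 and 4084 CPM on chow. Here the chow library of baboon 2 lay among the HCHF values. The member averaged 924 ± 426 CPM on the HCHF diet and 2815 ± 1230 CPM on chow (SD, n = 6 each), and was lower on the HCHF diet in 6 of 6 animals on both the CPM and the TMM scale. On the total without mitochondrial genes it was lower in 5 of 6, with a log2 ratio of 0.05 in baboon 2. The log2 fold change was -1.37 (SE 0.28) over all 6 baboons, -1.40 (SE 0.44) in high and -1.34 (SE 0.44) in low LDL-C baboons. With edgeR the unadjusted p over all 6 was 0.00052 and the adjusted p 0.503, so it was not called. Its adjusted p was 2.17e-07 with DESeq2, 0.126 with no filter on low counts and 0.194 without baboon 1, and over 15 alternatives it ran up to 1.0. The estimate stayed between -1.58 and -1.28 in all 15, and the unadjusted p was under 0.05 in each. DESeq2 called 4 members over all 6 baboons, beside 0.389% of all genes, and this was the one of them with the largest change.

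ENSPANG00000016966 (rank 17, chr20:2623386-2637897) was the next of the lower members. It had 622, 1580 and 1741 CPM on the HCHF diet in baboons 4, 5 and 6, against 1780, 2170 and 1942 CPM on chow. It had 599, 653 and 460 CPM on the HCHF diet in baboons 1, 2 and 3, against 1913, 594 and 1889 CPM on chow. The diets overlapped only through the chow library of baboon 2 in the low LDL-C animals, and did not overlap in the high LDL-C animals. The log2 fold change over all 6 was -0.81 (SE 0.30), with an unadjusted p of 0.0198 and an adjusted p of 0.916 by edgeR and an adjusted p of 0.0912 by DESeq2. It was lower on the HCHF diet in 5 of 6 animals on CPM, the exception being baboon 2, and in 6 of 6 on TMM-scaled counts.

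ENSPANG00000023854 (rank 79, chr7:81344891-81349220) had the lowest p of the members with higher estimates. It had 971, 2861 and 473 CPM on the HCHF diet in baboons 4, 5 and 6, against 626, 1174 and 317 CPM on chow. It had 391, 1197 and 1218 CPM on the HCHF diet in baboons 1, 2 and 3, against 285, 691 and 1080 CPM on chow. Every animal was higher on the HCHF diet, but the animals differed by more than the diets and the ranges overlapped in both phenotypes. The log2 fold change over all 6 was 0.80 (SE 0.28), with an unadjusted p of 0.015 and an adjusted p of 0.886 by edgeR and an adjusted p of 0.071 by DESeq2.

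ENSPANG00000005007 (rank 142, chr3:164615280-164624783) came next among the higher estimates. It had 722, 838 and 479 CPM on the HCHF diet in baboons 4, 5 and 6, against 585, 540 and 350 CPM on chow, and 383, 301 and 421 CPM on the HCHF diet in baboons 1, 2 and 3, against 458, 202 and 394 CPM on chow. It was higher on the HCHF diet in 5 of 6 animals, the exception being baboon 1 on CPM and baboon 2 (a log2 ratio of -0.10) on TMM-scaled counts. Its log2 fold change of 0.45 (SE 0.24) had an unadjusted p of 0.0884 by edgeR and an adjusted p of 0.61 by DESeq2, and none of the 15 alternatives called it. Its Spearman correlation with the share of the 2 leading genes was -0.63. In all, 13 members (8.67%) were at -0.6 or lower, beside 8.92% of genes tested.

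**Figure D5:**
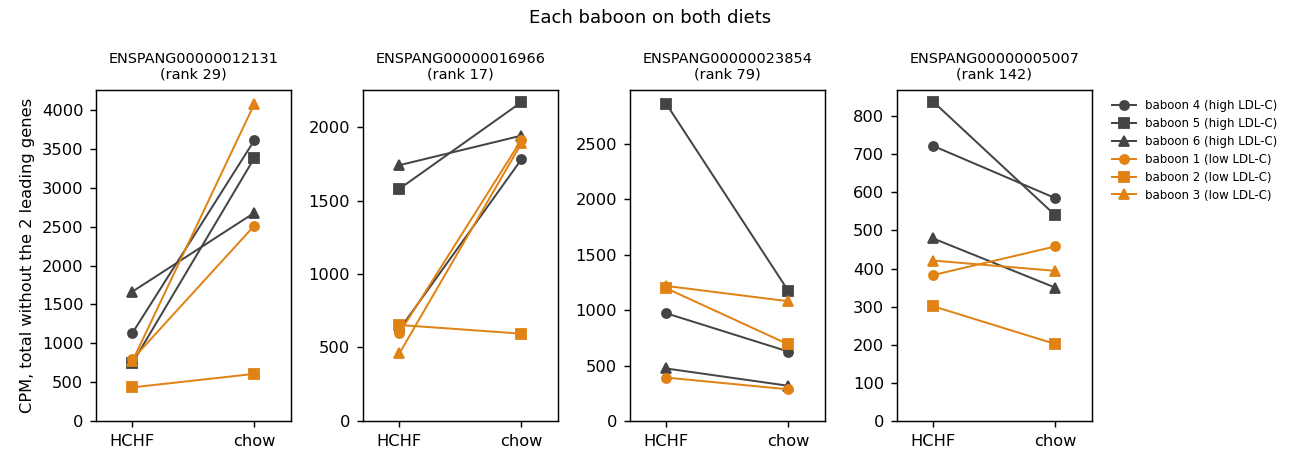
Each line joins a baboon's CPM on HCHF (left) and on chow (right) for 4 members, with dark lines for high and orange lines for low LDL-C animals and y axes that start at 0. On this scale ENSPANG00000012131 is lower on HCHF in all 6 animals, least so in baboon 2, and ENSPANG00000023854 is higher on HCHF in all 6.

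The other members with the lowest p-values did not pass by edgeR either. Over all 6 baboons, rank 77 (X chromosome, 141706845 to 141729477) had a log2 fold change of -0.72 (SE 0.29, unadjusted p 0.0301 by edgeR), and with an adjusted p of 0.193 it was among the 4 members called by DESeq2. Rank 94 (chromosome 16, 49675498 to 49680318) had a log2 fold change of 0.55 (SE 0.33, unadjusted p 0.127 by edgeR) and an adjusted p of 0.734 by DESeq2. In low LDL-C baboons the lowest unadjusted p of a higher member was 0.085, for rank 70 (chromosome 1, 93797552 to 93807854) at 0.87 (SE 0.46).

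On CPM, 3 members (2.00%) had higher values on HCHF than on chow in each of the 6 baboons, beside 0.864% of all genes, and 2 (1.33%) were lower in all 6, beside 2.17% of all genes. On TMM-scaled counts these were 1 member, beside 1.97% of all genes, and 2 members, beside 2.26%. On the total without mitochondrial genes 25 members (16.7%) were higher in all 6, beside 2.09% of all genes, and 0 were lower in all 6, beside 0.682%. The counts thus turned on the scale. On the total without mitochondrial genes, 86.2% of all genes tested were higher on the HCHF diet in baboon 2, with a median log2 ratio of 1.22. The members' median there was 0.69, below that of all genes. ENSPANG00000023854 was higher in all 6 on each of the 3 scales.

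The second question was whether the phenotypes differed in their diet response. No member passed this test. For the difference in log2 fold change, high minus low LDL-C, 0 members were called, beside 0.225% of all genes, and 0 had an unadjusted p under 0.05, beside 4.85% of all genes. DESeq2 called 0 members, beside 0.0432% of all genes, with 1 (0.667%) at an unadjusted p under 0.05, beside 1.8%. The lowest edgeR p was 0.113, for rank 138 (chromosome 2, 128994452 to 129007236), whose difference was 0.95 (SE 0.55). The median difference over the members was -0.39, against 0.03 over all genes, and 43 members were above 0. It was -1.01 without baboon 2 and 0.10 without baboon 1, so its sign rested on baboon 1. Without baboon 2, 92 members (61.3%) had an unadjusted p under 0.05, beside 13.5% of all genes, and 0 were called, beside 0.259%.

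On chow, high and low LDL-C baboons were compared without the diet. Again 0 members were called, beside 0.0% of all genes, and 0 had an unadjusted p under 0.05, beside 5.92% of all genes. DESeq2 called 0 members, beside 0.354% of all genes, with 2 (1.33%) at an unadjusted p under 0.05, beside 4.22%. The median log2 fold change, high over low LDL-C, was -0.12 in the members and -0.02 over all genes, and 61 members were higher. This sign also depended on the scale. On the total without the 2 leading and mitochondrial genes the median was 0.34 in the members and 0.31 over all genes, a difference of 0.03. The lowest p among the members was 0.0766, for rank 74 on chromosome 1 (181338579 to 181338987), with a log2 fold change of -1.12 (SE 0.55) and an adjusted p of 0.878 by edgeR.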

How the data were processed

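Total RNA of buffy coats was poly-A selected and sequenced as paired ends in 12 libraries. For each transcript the deposited table gives expected counts, estimated by the authors with expectation maximization in Partek Flow after trimming and alignment with STAR 2.3.1j to the PapAnu2 transcriptome of Ensembl. CASAVA 1.8 is also named in the submitters' notes. The counts are not scaled for length or depth. Replicates were not pooled.

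Counts of 29300 transcripts were summed to 27533 genes and rounded for the tests. Levels are CPM on the total without the 2 leading genes, and log2 values carry a prior of 0.5 CPM. Genes with a mean of at least 1 count per 1000000 of the whole library total were tested. The tests were two-sided, with edgeR 4.0.16 (TMM, glmQLFit, glmQLFTest, R 4.3.3) and a term for each baboon. The chow comparison used the 6 chow libraries. The pairing comes from the animal numbers in the labels, and the 2 libraries of a baboon deviated from their group means with correlations of 0.081 to 0.38 over all genes. Over the members alone these were -0.20 and -0.45 in baboons 1 and 2 and 0.30 to 0.67 in the other 4. For diet, p-values cover how far the change within an animal varied between these animals. For the chow comparison, they cover the spread between animals. The test was also tried on simulated counts, with the same spread for every gene and no differences between animals. That setting is simpler than these libraries, so no result here rests on it. Alternatives were DESeq2 1.42.0, limma 3.58.1 after quantile normalization, other totals and filters, and leaving out baboons.

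The members and gene lists were chosen with earlier results of these data known. Members described singly are the 15 highest by median, those at the boundary, the 3 with the lowest p in each direction per comparison (none was called) and the most and least variable. At most 2 IDs per direction are printed, because the files pair no ID with a symbol. The gene lists and cell type markers need symbols and were not applied.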

Additional observations from a re-analysis of the deposited data

Results flagged for a closer look

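A member of 509 bp on chromosome 13 (66997433 to 66997941, rank 25) had log2 ratios of opposite sign in the phenotypes, most of them very small. Its log2 ratio of HCHF to chow on CPM was -0.02, -0.09 and -0.03 in the high LDL-C baboons 4, 5 and 6. It was 0.99, 0.01 and 0.61 in the low LDL-C baboons 1, 2 and 3. Only baboons 1 and 3 thus showed a sizeable change, and in both all 42 members under 1 kb were above the all-gene median. The difference in diet response, high minus low LDL-C, was -0.67 (SE 0.72) with an unadjusted p of 0.373 and an adjusted p of 1.0 by edgeR, so it did not pass the test. On TMM-scaled counts no member had opposite signs in every baboon.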

How the results depend on the processing

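The set shared 126 to 143 of its 150 genes with the sets made under other totals, without the exclusion by correlation, by mean CPM or without any 1 baboon. Ranking per kilobase was not run, because the file gives genomic span and not transcript length. The members' median share of 18.9% was 9.43% of whole libraries and 24.9% without mitochondrial counts. Their median SD was 0.45 to 0.59 under alternatives chosen after seeing the data. No member was called in any comparison with other scalings, a whole-library mean of 5 CPM, robust estimation or an adjusted p under 0.05. Exceptions were DESeq2, which called 1 member in high LDL-C baboons, 1 in low LDL-C baboons and 4 over all 6, and no filter, which called 1 over all 6. Leaving out single baboons gave 0 to 95 called members in low LDL-C baboons (95 without baboon 2) and 0 to 1 over all 6. The cause was not tested. Without the replicate block for baboons, 0 members were called in each diet comparison, and the median log2 fold changes were 0.15 in high LDL-C baboons, 0.42 in low, 0.30 over all 6 and -0.29 for the difference.

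The sign of the members' median log2 fold change turned in 6 cases. With single baboons left out it ran between -0.05 (without baboon 5) and 0.25 in high LDL-C baboons, between -1.01 and 0.10 (without baboon 1) for the difference between phenotypes, and between -0.24 and 0.07 (without baboon 2) on chow. The difference was 0.21 without baboons 1 and 6. On chow the median was 0.34 on the total without mitochondrial genes and 0.29 after quantile normalization. The chow library of baboon 2 had the fewest counts outside the 2 leading genes, 915109, and a median of 491.1 counts per member; the part of depth in the low LDL-C results was not tested.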
